A study of Mus musculus with 2 samples.

Results

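The cells described here were resting adventitial fibroblasts that carried *Pi16*, taken from a single-cell RNA-seq survey of the *Clec3b* lineage in mouse limbs. They were chosen by their UMI counts (unique molecular identifiers, 1 per captured mRNA molecule). A cell was a member if it had at least 500 genes, at most 10% of UMIs from mitochondrial genes, no UMI of the leukocyte gene *Ptprc*, and UMIs of at least 3 of the 6 fibroblast genes *Pdgfra*, *Clec3b*, *Dcn*, *Lum*, *Dpt* and *Col3a1*. It also had at least 3 UMIs of *Pi16*, none of *Col15a1*, fewer than 5 of *Thbs4* and *Cilp* together, and fewer than 5 of the inflammatory genes *Ptx3*, *Has1*, *Tnfaip6*, *Il6* and *Cxcl1* together. These limits selected 114 of 5859 cell barcodes, 69 of 1872 from intact tissue and 45 of 3987 from fracture callus. The levels of these genes chose the cells, so values given for them are descriptions and no finding.

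The mice carried Clec3b.creERT2, a tamoxifen-inducible Cre expressed from the *Clec3b* locus, with the Ai14.R26.tdTomato reporter, so tdTomato marked the cells in which the locus was active at the time of tamoxifen and the descendants of those cells. Littermates labelled male received tamoxifen 2 weeks before a stabilised fracture of the right femur at 6 weeks of age, and tissue was collected 3 weeks after surgery. Intact femoral diaphyses with surrounding muscle and the calluses were pooled separately from 3 mice, digested with collagenase, sorted for tdTomato and loaded as 1 library each. Both groups share the genotype and the tamoxifen. Each condition was therefore 1 sample, and all cells of a library came from the same pool. No difference between conditions has a replicate check, no test between them was possible, and intervals given below are 95% exact intervals that cover counting error only.

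Fibroblasts marked by *Pi16* line the outer coat, or adventitia, of blood vessels and the fascia of many organs, and carry the stem cell antigens *Cd34* and *Ly6a* together with the surface peptidase *Dpp4*. They are widely regarded as a reserve from which more specialised fibroblasts of a tissue can arise. *Pi16* encodes a secreted or membrane-anchored peptidase inhibitor, and *Clec3b* encodes tetranectin, a plasminogen-binding protein.

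Several properties of the libraries bear on the values. The labels call the mice male, but *Xist*, the RNA that silences the second X chromosome of females, was found in 45 of 69 intact members (65.2%, 52.8 to 76.3) and 37 of 45 callus members (82.2%, 67.9 to 92.0), and 8 Y-linked genes had 0 UMIs in the members of either library. The libraries shared 1 barcode, which was no member. Among callus members, 2 cells carried large amounts of another cell type. The first held 6386 haemoglobin and other red cell UMIs among 16322, beside 31 of *Pi16* and 16 of *Clec3b*. The second held 60 osteoblast, 314 marrow stroma and 73 haematopoietic UMIs among 18563, with 172 of the myeloid precursor gene *Mpo*, and only 3 of *Pi16* and 2 of *Clec3b*. This pair is called the mixed cells below, and the main counts that it moves are given without it as well.

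Depth was similar in the members of both libraries. Intact members held 311295 UMIs in all and callus members 272622. The median cell had 4384 UMIs and 1956 genes in intact tissue (lowest 930 UMIs, highest 9112), and 5268 UMIs and 2146 genes in callus (lowest 1059, highest 18563). Median mitochondrial shares were 1.76% and 2.44%. Members made up 5.72% (4.47 to 7.18) of the 1207 intact cells that passed the limits on genes and mitochondrial UMIs, and 1.37% (0.998 to 1.82) of the 3295 callus cells. As a share of fibroblasts by the 6-gene limit they were 24.0% (19.1 to 29.3) of 288 and 18.1% (13.5 to 23.4) of 249. Whole-library shares also reflect what else passed the tdTomato gate in each pool.

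Cells with at least 3 *Pi16* UMIs were left out at several limits. Outside the fibroblast limits lay 29 of them in intact tissue and 70 in callus, of which 27 and 67 had a *Ptprc* UMI. In intact tissue 213 fibroblasts had at least 3 *Pi16* UMIs, 200 also met the *Col15a1*, *Thbs4* and *Cilp* limits, and 69 met the inflammatory limit. In callus the steps left 139, 106 and 45. The inflammatory limit therefore left out 131 cells in intact tissue and 61 in callus. An inflammatory sum of 4, just inside the limit, was found in 4 members of each library, and a sum of 5, just outside, in 6 intact and 3 callus cells, while 35 intact and 25 callus members had none of these UMIs at all. *Pi16* stood at its minimum of 3 in 1 intact and 2 callus members, and 2 intact and 3 callus cells with 2 UMIs fell just outside. *Pi16* counts ran from 3 through a median of 18 to 50 UMIs in intact members, and from 3 through 13 to 71 in callus members.

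The label was checked against 5 markers, of which *Pi16* itself chose the cells, so its presence is no check. Levels are given as CPM, the UMIs of a gene per 1000000 UMIs summed over members, and because each transcript is counted once at its 3′ end they can be set side by side between genes without a length correction. *Pi16* had 4366 CPM (interval 4137 to 4604) in intact members, and 3103 CPM (2898 to 3320) in those of callus. *Fbn1*, which encodes the microfibril protein fibrillin-1, stood at 3495 and 3224 CPM. *Sema3c*, a secreted semaphorin, stood at 1757 and 1456 CPM, and was found in 63 of 69 and 45 of 45 cells. *Efemp1*, or fibulin-3, stood at 1221 and 895 CPM, and *Cd248*, or endosialin, at 1179 and 968. Without *Pi16* the other 4 summed to 7652 CPM (7348 to 7966) in members from intact tissue, and their sum in callus was 6544 CPM (6244 to 6855). In B-lineage cells of the same libraries, which should lack them, this sum was 8.89 and 4.03 CPM. Those cells were chosen to have no UMI of *Dcn*, *Col3a1* or *Pdgfra*, which leaves out cells that had taken up such RNA. Low levels of fibroblast genes in them, here and below, are therefore partly set by the choice. The B-lineage cells held RNA of other cells too, and in callus more of it than the members did. Neutrophil genes stood there at 11153 CPM and red cell genes at 12211 CPM, against 337 and 172 CPM in callus members other than the mixed cells. A level in callus B-lineage cells is therefore not a measure of free RNA alone.

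Genes of adventitial progenitors that did not enter the rule were detected as well. *Mfap5*, a microfibril-associated glycoprotein, stood at 3640 and 2373 CPM in intact and callus members. *Cd34* stood at 1650 and 1320 CPM, and *Ly6a*, which encodes Sca-1, at 1873 and 2282 CPM. *Dpp4* stood at 508 and 462 CPM and had a UMI in 49 of 69 and 38 of 45 cells. *Cd55*, a complement decay-accelerating protein, and *Anxa3*, an annexin, stood at 1224 and 968 CPM and at 1442 and 1042 CPM. *Dpp4* and *Cd55* were also present in B-lineage cells, at 127 and 218 CPM in intact tissue and 111 and 171 in callus, as the plot of marker levels shows.

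**Figure D1:**
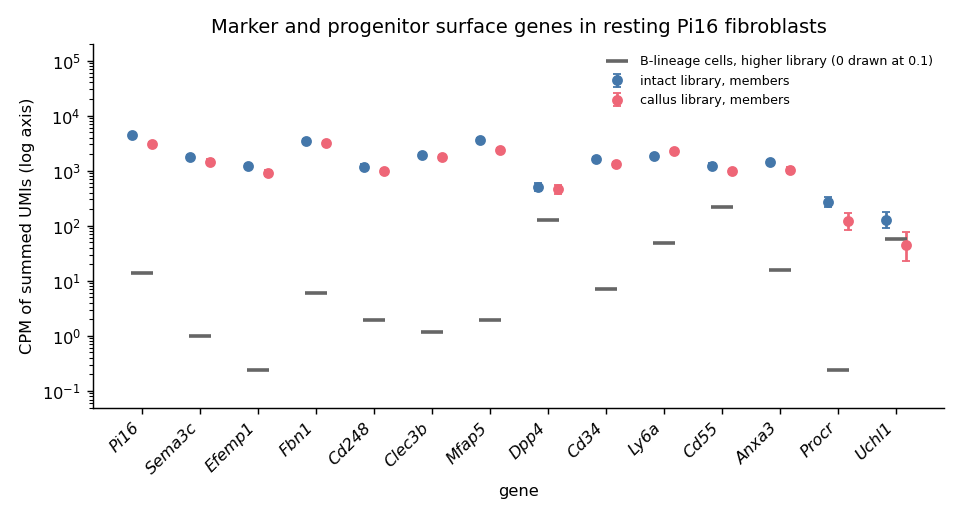
Level of marker and progenitor surface genes in resting *Pi16* fibroblasts, in CPM of summed UMIs on a log axis, for intact (blue) and callus (red) members with 95% exact Poisson intervals, and in B-lineage cells as a grey bar (the higher library). *Pi16* sits at 4366 and 3103 CPM, while *Procr* and *Uchl1* sit lowest, at 121 and 44.0 CPM in callus members.

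Defining genes of most other cell types were at or near 0 in the intact members. The 10 osteoblast genes had 0 UMIs, of the chondrocyte list only *Sox9* (3 UMIs) was found, and of the endothelial list only *Kdr* (1 UMI). The mural list had 4 UMIs and the tenocyte list 5, with *Tnmd*, *Scx* and *Acta2* at 0. The haematopoietic list had 7 of 10 genes detected with 15 UMIs in all (48.2 CPM), *Lyz2* the most abundant, and *Ptprc* at 0 by the rule. The marrow stroma list had 61 UMIs (196 CPM), led by *Cxcl12*, against 32.6 CPM in intact B-lineage cells. The neutrophil list had 78 (251 CPM), led by *S100a9*, against 272 CPM of neutrophil genes in intact B-lineage cells. The B-cell list had 357 UMIs (1147 CPM), of which 352 were *Ebf1*, a factor that fibroblasts also express, and *Cd79a* and *Ms4a1* were at 0. Red cell genes summed to 1368 CPM, mostly *Hbb-bs* with 280 of 426 UMIs and no more than 14 in any cell, against 1991 CPM in intact B-lineage cells. In callus members the osteoblast list had 66 UMIs (242 CPM), with *Ibsp* leading at 49, and 60 of them lay in 1 mixed cell. Marrow stroma genes had 392 UMIs (1438 CPM), led by *Cxcl12*, with 314 in that cell. Without the mixed cells these lists stood at 25.2 and 315 CPM, the haematopoietic list at 122 CPM and the red cell list at 172 CPM. In callus B-lineage cells the osteoblast and marrow stroma lists stood at 32.7 and 54.6 CPM. Muscle genes summed to 247 and 466 CPM in the members of the libraries, below the 605 and 1095 CPM of the B-lineage cells.

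Among the most abundant transcripts were those of matrix proteins and growth factor carriers. The order leaves out genes of the rule, such as *Col3a1*, and mitochondrial, ribosomal protein, haemoglobin and model genes. With these left out, *Malat1*, a nuclear noncoding RNA, and *Gsn*, the actin-severing protein gelsolin, led in both libraries, with *Gsn* at 12846 and 10880 CPM. *Igfbp5* and *Igfbp6*, which bind insulin-like growth factors, stood at 6778 and 5339 CPM in intact members and 6331 and 3763 in callus members. *S100a6*, a calcium-binding protein, stood at 7395 and 5007 CPM, and *Timp2*, an inhibitor of matrix metalloproteinases, at 3694 and 3052. *Sparc*, a collagen-binding matrix glycoprotein, stood at 5072 and 7035 CPM, or at 5367 in callus members without the cell that held most *Col1a1*. *Col1a1*, *Col1a2* and *Fn1* were also in the first 15 of callus members, and *Col1a1* and *Col1a2*, but not *Fn1*, in that of intact members.

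The promoters of *Col1a2* and *Col3a1* are shown because both genes stood more than 2-fold higher in callus than in intact members. *Col3a1* is a gene of the rule, and neither difference reached 2-fold without each gene's highest cell. The genes encode chains of type I and type III collagen, the main fibres of loose connective tissue. The sequences run 5′ to 3′ from 250 bases before to 50 after the annotated RefSeq start (build GRCm38.p6, both genes on the plus strand), at chr6:4505368-4505667 for *Col1a2* and chr1:45311288-45311587 for *Col3a1*. Capitals mark matches, searched on both strands, to CCAAT (or ATTGG), a core promoter motif bound by NF-Y, and TATAAA (or TTTATA), the TATA box. The motifs do not overlap each other.
Col1a2: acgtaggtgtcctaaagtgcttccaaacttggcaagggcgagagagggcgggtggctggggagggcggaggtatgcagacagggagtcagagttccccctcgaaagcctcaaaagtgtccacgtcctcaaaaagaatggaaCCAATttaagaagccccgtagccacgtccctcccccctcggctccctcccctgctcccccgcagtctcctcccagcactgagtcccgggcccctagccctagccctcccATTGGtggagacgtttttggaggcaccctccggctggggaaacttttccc
Col3a1: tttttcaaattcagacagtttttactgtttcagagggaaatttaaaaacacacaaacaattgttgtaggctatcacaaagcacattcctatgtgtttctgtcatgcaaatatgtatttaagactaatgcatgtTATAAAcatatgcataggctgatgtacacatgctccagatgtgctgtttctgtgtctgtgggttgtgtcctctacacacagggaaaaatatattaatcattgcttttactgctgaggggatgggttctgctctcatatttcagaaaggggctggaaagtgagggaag
The *Col1a2* window held 2 CCAAT matches and no TATA match, and the *Col3a1* window 1 TATA match and no CCAAT match. Of 32851 promoter windows of the same length, 37.4% held a CCAAT match and 13.6% a TATA match. A match is a string of letters and not a tested site.

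Callus members were compared with intact members. The pools differed in the tissue taken, callus against diaphysis with surrounding muscle, as well as in fracture. These cannot be told apart in the ratios that follow. Genes with at least 50 UMIs over both groups were examined, and a gene was called when its CPM differed by 2-fold or more. Of 1887 such genes, 45 were higher in callus members (2.38%) and 44 lower (2.33%), and the median log2 ratio was -0.08. With log2 ratios centred on the median, 56 were higher and 31 lower, which moved the share of higher calls from 50.6% to 64.4%. Without the mixed cells the counts were 33 (1.85%) and 38 (2.13%) of 1782. In B-lineage cells, 644 genes (7.99%) of 8061 were 2-fold higher in callus and 316 (3.92%) lower.

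The fibrillar collagens *Col1a1*, *Col1a2* and *Col3a1* were each more than 2-fold higher in callus members. *Col3a1* is one of the 6 fibroblast genes of the rule, so its value is a description. *Col1a1* (11:94936224-94953042 of GRCm38) had 3379 CPM (3178 to 3590) in intact members. Its callus level was 7751 CPM (7424 to 8088), a ratio of 2.29 (2.13 to 2.47). *Col1a2* stood at 3781 and 8018 CPM, a ratio of 2.12 (1.97 to 2.28), and *Col3a1* at 6409 and 14551 CPM, a ratio of 2.27 (2.15 to 2.40). The type V chains that seed thin fibrils differed less, with *Col5a2* at 646 and 917 CPM and *Col5a1* at 713 and 719. Of the 6 fibrillar collagens with enough UMIs, 3 were 2-fold higher and none lower, beside 2.38% and 2.33% of all genes. Their median log2 ratio was 0.80, against -0.08 for all genes. Leaving out *Col3a1*, 2 of 5 were called. Without each gene's highest cell none of the 6 was called, and the median was 0.55. Without the mixed cells the log2 ratios of the 3 genes were 1.36, 1.23 and 1.34.

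One callus cell carried much of this. It had 16045 UMIs, 66 of *Pi16* and 37 of *Clec3b*, no UMI of *Ibsp* or *Tnc*, and 29.9% of all *Col1a1*, 28.2% of *Col1a2* and 24.8% of *Col3a1* UMIs of the callus members. Without it the ratios were 1.71, 1.62 and 1.81. With every cell given the same weight the log2 ratio was 0.83 for *Col1a1* and 0.89 for *Col3a1*, and in cells of 4000 to 12000 UMIs 0.68 and 0.73, so these calls did not hold there. The per-cell values show a longer upper tail and a nearly unmoved middle for *Col1a1*. Per 10000 UMIs of a cell, *Col1a1* had a median of 29.7 in intact and 28.8 in callus members, while the upper quartile was 47.0 against 78.5 and the highest cell 129 against 394. For *Col3a1* the median was 48.7 against 82.0, and for *Col1a2* 34.0 against 42.8. The fibrillar list as a whole had a median of 144 and 168 and an upper quartile of 185 and 316. Apart from the highest callus cells, the groups overlapped.

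**Figure D2:**
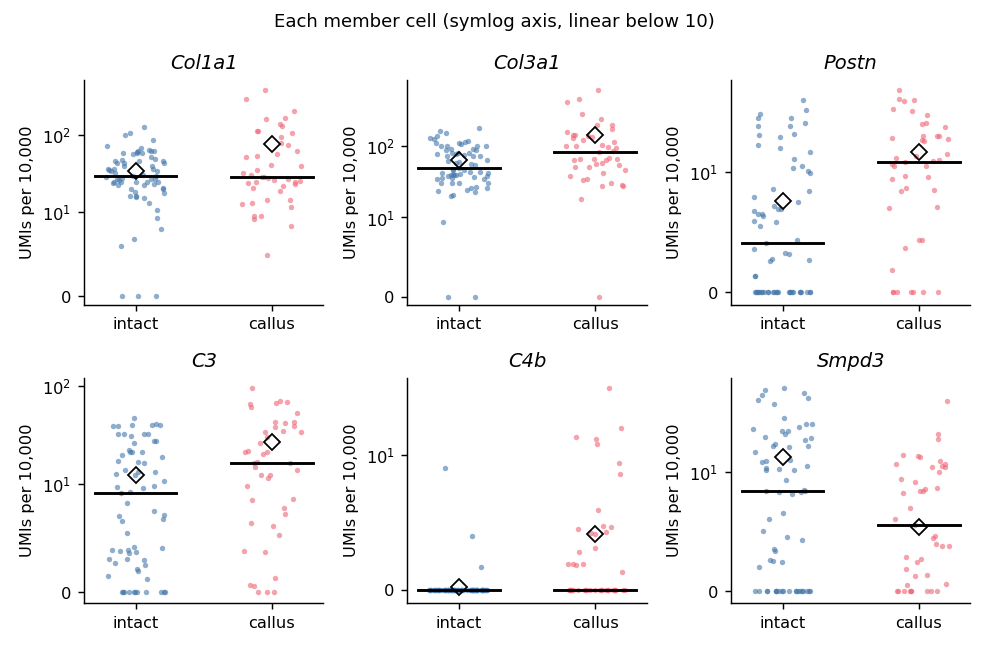
Level of 6 genes in single resting *Pi16* fibroblasts, in UMIs per 10000 UMIs of the cell on a symlog axis (linear below 10), with 1 point per cell, a line at the median and a diamond at the level of the summed UMIs. The groups overlap in every panel, and 7 of 45 callus members lie above the highest intact member for *Col1a1*.

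Of 45 callus members, 7 (15.6%, 6.49 to 29.5) exceeded the highest intact member in *Col1a1*, 7 in *Col3a1* and 4 in *Col1a2*. Above the upper quartile of intact members for the summed fibrillar list, *Col3a1* included, lay 21 callus members, 46.7%. This split was made after the values were seen and describes the cells without a test. The 21 cells had 3665 CPM of *Pi16*, 2073 of *Clec3b* and 620 of *Dpp4*, and the other 24 had 2586, 1452 and 317. Both mixed cells were among the 24 and held 34885 of their 141911 UMIs. Without them the other 22 cells had 3111 CPM of *Pi16*, 1757 of *Clec3b* and 402 of *Dpp4*. *Postn*, which encodes periostin, a matricellular protein of collagen fibres, stood at 2249 CPM in the 21 cells and 999.8 in the 22. *Sparc* stood at 10397 and 4335 CPM, *Fn1*, or fibronectin, at 6534 and 4448, and *Aebp1*, a collagen-binding protein, at 1186 and 682. The callus cell with most *Col1a1* was among the 21. Without that cell, all other callus members together had *Sparc* at 1.06 and *Fn1* at 1.48 times the intact level. Of 20 listed myofibroblast genes, 5 had enough UMIs and 3 of these were 2-fold higher in callus members, *Postn*, *Tnc* and *Tpm1*, or 1 of 4 without the mixed cells, beside 2.38% and 1.85% of all genes. Their summed level was 4754 CPM in intact and 7857 CPM in callus members, or 8072 without the mixed cells. *Acta2*, which encodes the smooth muscle actin of myofibroblasts, had 0 UMIs in all 114 members, which at 3 counts allows up to 9.637 CPM in intact and 11.004 CPM in callus members.

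A few matrix genes other than collagen stood higher in callus members. *Postn* stood at 758 CPM (664 to 861) in 43 of 69 intact cells and 1522 CPM (1379 to 1676) in 38 of 45 callus cells, a ratio of 2.01 (1.71 to 2.37). Its per-cell median was 4.07 against 12.3 per 10000 UMIs, and without the collagen-rich cell the ratio was 1.86. *Aebp1* stood at 315 and 862 CPM, a ratio of 2.74 (2.15 to 3.50). *Htra1*, a secreted serine protease, stood at 206 and 509.9 CPM, a ratio of 2.48 (1.83 to 3.39). *Ctsk*, the collagen-degrading protease cathepsin K, was at 96.4 CPM in 23 cells and 407 CPM in 28 cells. Of its 111 callus UMIs, 36 lay in 1 cell and 54.1% in 3 cells. Beside 2.38% of all genes higher and 2.33% lower, of 15 examined genes of matrix proteases and their inhibitors 2 were 2-fold higher, *Htra1* and the protease inhibitor *Serpine2*, and 1 lower, *Reck*, a membrane inhibitor of metalloproteinases (145 and 47.7 CPM). Without the mixed cells *Serpine2* had a log2 ratio of 0.34, and 1 gene was higher and 1 lower. Of 8 matricellular genes 2 were higher, *Postn* and *Tnc*, but all 54 *Tnc* UMIs lay in 1 mixed cell, and the count was 2 of 7 without the mixed cells.

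Elastic fibre genes give the adventitia its stretch. Of 15 examined, *Fbln1* was the only gene 2-fold apart (80.3 and 187 CPM), beside 4.72% of all genes. The list's median log2 ratio was 0.09, against -0.08 for all genes. The count lies near the share of all genes, so nothing is read from it. No gene was 2-fold apart among 10 basement membrane genes, 5 other collagens and 9 collagen-processing genes. With 4.72% of all genes apart, nothing is read from these counts either. *Bgn*, the small proteoglycan biglycan, stood at 25.7 and 315 CPM, but 80.2% of its callus UMIs came from 3 cells. *Igfbp3* stood at 16.1 and 187 CPM with 84.3% in 3 cells, and *Gas6*, a ligand of TAM receptor kinases, at 19.3 and 220 CPM in 6 and 12 cells, with 25 of its 60 callus UMIs in 1 cell. Called genes were often of this kind, since in 29 of the 45 higher genes over 20% of the callus UMIs came from 1 cell, against 3 of the 44 lower genes in intact members. Without each gene's highest cell in each library, 29 genes were higher (1.54%) and 64 lower (3.39%), and 24 of the 45 and 42 of the 44 kept a 2-fold difference.

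Several complement genes were higher in callus members. Complement is the plasma cascade that tags targets for removal, and fibroblasts make several of its parts. Of 7 examined genes, 3 were 2-fold higher and none lower, with a median log2 ratio of 0.83, beside 2.38% of all genes called higher. Without each gene's highest cell 1 of the 7 was called, *C4b*, and the median was 0.80. *C3*, the central component, stood at 1230 CPM (1110 to 1360) in 58 of 69 intact cells and 2656 CPM (2466 to 2856) in 42 of 45 callus cells, a ratio of 2.16 (1.90 to 2.45), and 7 callus members exceeded the highest intact one. With every cell given the same weight its log2 ratio was 0.89, under the limit of a call. *C1ra*, a protease that starts the classical pathway, stood at 196 and 392 CPM, a log2 ratio of 1.00 at the limit of a call, and its partner *C1s1* at 392 and 697. *Serping1*, the inhibitor of both, stood at 1156 and 1603 CPM, a ratio of 1.39. *Cd55*, which protects cells from the cascade, stood at a ratio of 0.791.

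*C4b*, the fourth component (17:34728380-34743882 of GRCm38), had the largest ratio among genes that rested on many cells. It had 5 UMIs in 3 of 69 intact members and 112 UMIs in 21 of 45 callus members. These were 16.1 CPM (5.22 to 37.5) and 411 CPM (338 to 494), a ratio of 25.6 (10.6 to 80.3). With every cell thinned to 2000 UMIs, which kept 55 intact and 38 callus members, 1.82% and 36.8% of cells had a UMI of *C4b*, against 0.407% and 0% of B-lineage cells. Before thinning, these B-lineage shares were 0.379% and 0%, at median depths of 2908 and 3383 UMIs. The choice of B-lineage cells without *Dcn*, *Col3a1* or *Pdgfra* bears on these low shares. The inflammatory cells of the same libraries, which share no cell with the members, stood at 30.1 and 228 CPM. A near-identical copy, *C4a*, lies beside it and reads may be split between them, so the value is uncertain in its assignment. *C4b* kept its call without its highest cell in each library, with a log2 ratio of 5.74. As 3 of its 5 intact UMIs lay in the intact cell removed, this ratio rests on very few intact UMIs.

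Other genes that stood higher in many callus members were *Plac8*, a small cysteine-rich protein, at 122 and 425 CPM in 19 and 20 cells, and *Bst2*, or tetherin, an interferon-induced surface protein, at 173 and 363 CPM. *Bst2* was higher by 1.25 on the log2 scale in B-lineage cells too, against 1.07 in members. The class I genes *H2-K1*, *H2-D1* and *B2m*, which present peptides to T cells, had log2 ratios of 0.84, 0.78 and 0.72, and 1 of 7 interferon-related genes, *Bst2*, was called higher, beside 2.38% of all genes. *Ifi207*, named after its value was seen, stood at 61.0 and 231 CPM in 18 and 27 cells. *Sfrp2*, a secreted Wnt modulator, stood at 594 and 1174 CPM, just under 2-fold, and none of 9 Wnt genes was called, or 1 higher and 1 lower without the mixed cells. The RNA-binding protein gene *Rbm25* had a log2 ratio of 1.13. *Npc2*, a lysosomal cholesterol carrier, *Lbp*, which binds bacterial lipopolysaccharide, *Ypel3* and the tetraspanin *Cd63* lay just under 2-fold, and *Cd63* was higher by 3.03 on the log2 scale in B-lineage cells. *Cxcl12*, the chemokine that holds blood stem cells in marrow, stood at 89.9 and 998 CPM, but 246 of its 272 callus UMIs were in 1 mixed cell.

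The genes lower in callus members included a lipid enzyme and several surface or secreted proteins. *Smpd3*, a neutral sphingomyelinase needed for normal skeletal growth, stood at 1388 CPM (1260 to 1525) in 49 of 69 intact members and 539 CPM (456 to 634) in 36 of 45 callus members, a ratio of 0.389 (0.320 to 0.470). At 2000 UMIs a cell, 63.6% and 47.4% of members had a UMI of it, against 0.813% and 0% of B-lineage cells (chosen to lack fibroblast genes). The gap was narrower at 1000 UMIs, with 45.6% and 40.0%, and at 4000 UMIs, with 70.3% and 66.7%, and each depth keeps other cells. In inflammatory cells the same comparison gave a log2 ratio of -1.90. With every cell given the same weight the log2 ratio in members was -0.88, which ends the call. *Krtdap*, a small secreted protein known from skin, stood at 485 CPM in 29 cells and 121 CPM in 7. *Procr*, the endothelial protein C receptor and a marker of several progenitor cells, stood at 270 CPM in 44 of 69 cells and 121 CPM in 15 of 45. Of 14 progenitor surface genes 2 were 2-fold lower, *Procr* and *Uchl1* (128 and 44.0 CPM), and none higher, beside 2.33% of all genes lower, and the list's median was -0.40 against -0.08 for all genes. *Dpp4* had a ratio of 0.911 (0.715 to 1.16).

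Few genes of each signalling list were called, beside 2.38% of all genes higher and 2.33% lower. Nothing is read from the counts that follow. Of 12 examined BMP and TGF-β genes 1 was lower and none higher, *Bmp2*, a bone morphogenetic protein, at 132 CPM in intact and 47.7 in callus members. Of 6 guidance genes 1 was lower and none higher, *Ntn1*, the cue netrin-1, at 186 and 84.4 CPM. Of 8 genes of insulin-like growth factors and their carriers 2 were higher and none lower, *Igfbp3* and *Igfbp7*, the latter at 86.7 and 253 CPM, or 2 and 1 without the mixed cells. Of 8 other growth factor and receptor genes 2 were higher, *Gas6* and the PDGF receptor *Pdgfrb* (77.1 and 169 CPM), and 1 lower, the vascular growth factor *Vegfa* (125 and 62.4 CPM), while without the mixed cells none of 6 was called. Of 4 hyaluronan genes 1 was lower and none higher, *Has2*, which makes hyaluronan, at 145 and 55.0 CPM. None of 16 examined transcription factors was 2-fold apart, and their median was -0.20. Without the mixed cells *Osr2* was called higher at a log2 ratio of 1.05 and *Tcf7l2* lower at -1.03. Of 18 immediate-early genes 3 were lower, *Ier2*, *Btg2* and *Junb*, and none higher, or 2 without the mixed cells, when *Junb* had -0.95. *Ier2* stood at 279 and 103 CPM, *Btg2* at 299 and 121, and *Junb*, at the limit of a call, at 684 and 341, while *Fos* was at 2120 and 1937. *Fos* was high in some cells of each library and absent in others, with 0 UMIs in 30 of 69 and 21 of 45 cells and a highest cell of 103 and 195 per 10000. Of all 213 examined genes in the gene lists, 20 were higher and 12 lower, or 28 in all without the mixed cells, beside 45 and 44 of all 1887 genes (4.72% in all). The lists were chosen with earlier results of these data known, so nothing is read from their higher share.

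**Figure D3:**
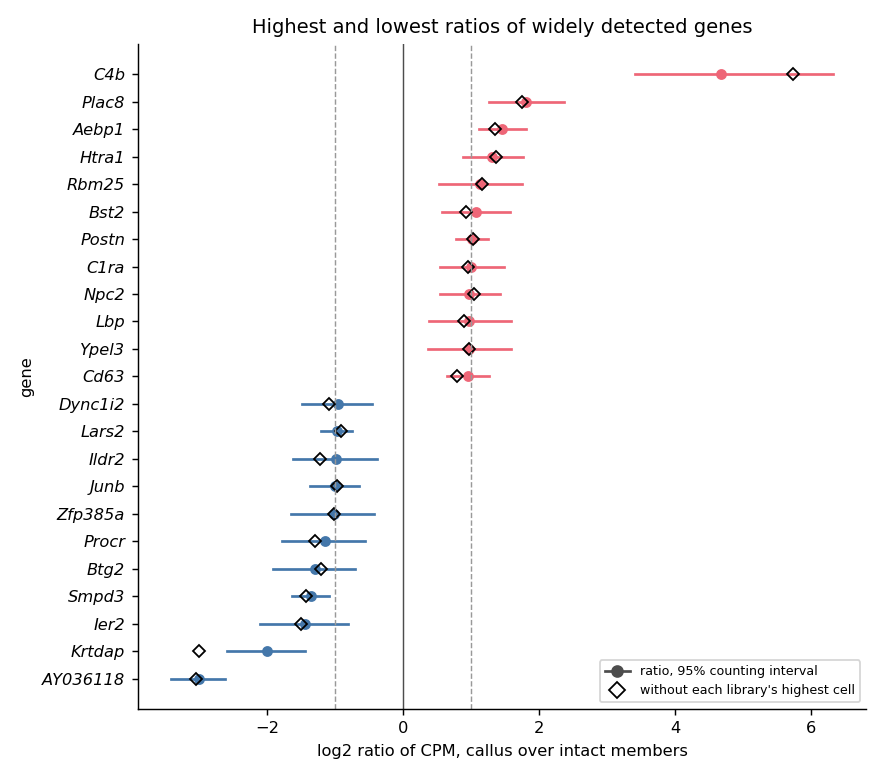
Log2 ratio of callus over intact CPM in resting *Pi16* fibroblasts for the 12 highest (red) genes and 11 of the 12 lowest (blue) found in many cells, with 95% counting intervals, dashed lines at 2-fold and diamonds for the ratio without each library's highest cell. *C4b* lies far to the right at 4.68 and *AY036118* far to the left at -3.01, and some genes lie just inside the 2-fold lines.

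Some genes with low ratios were lower in callus cells of another kind as well. *AY036118*, a noncoding RNA, stood at 1741 and 216 CPM, a log2 ratio of -3.01 in members and -3.48 in B-lineage cells. *Lars2*, the mitochondrial leucyl-tRNA synthetase, had -0.98 and -1.62. Among called genes with at least 50 UMIs in B-lineage cells, 11 of 24 higher and 5 of 28 lower were called in the same direction there. Of all 1476 genes examined in both, 4.74% were called higher and 1.96% lower in B-lineage cells. The part of the library itself in these ratios was not tested.

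Resting cells were next set beside the inflammatory *Pi16* fibroblasts of the same library, which met the same limits but had at least 5 UMIs of *Ptx3*, *Has1*, *Tnfaip6*, *Il6* and *Cxcl1* together. There were 131 such cells in intact tissue and 61 in callus. They were deeper, with medians of 8636 and 8759 UMIs, and a fixed UMI limit favours deep cells. The rule used these genes, so what follows are descriptions of cells from 1 pool each. In intact tissue 37 of 4290 genes (0.862%) were 2-fold higher in resting cells and 161 (3.75%) lower, and in callus 28 of 2556 (1.1%) were higher and 130 (5.09%) lower. Without mixed cells the counts were 30 and 159 in intact tissue, and 19 and 104 in callus. Of genes examined in both, 64 were lower in both, which was 72.7% of the 88 lower in intact tissue and 51.6% of the 124 lower in callus, and 1 was higher in both.

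None of the 5 *Pi16* markers was 2-fold apart in either library, and none of the examined elastic fibre genes (15 in intact tissue and 16 in callus) or of the 6 examined fibrillar collagens. Of all genes, 4.62% were 2-fold apart in intact tissue and 6.18% in callus, so nothing is read from these counts. *Pi16* itself was required in both groups. The immediate-early list, transcription factors and feedback regulators induced within minutes of a stimulus, summed to 14057 CPM in resting and 29395 in inflammatory cells of intact tissue, and to 11228 and 31522 in callus. Of its examined genes, 15 of 27 and 22 of 26 were 2-fold lower in resting cells, beside 3.75% and 5.09% of all genes. None was higher, beside 0.862% and 1.1% of all genes. In cells of 4000 to 12000 UMIs the ratios were 0.494 and 0.380, against 0.478 and 0.356 in all.

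*Egr1*, an immediate-early zinc finger factor, stood at 1005 CPM in resting and 3270 in inflammatory cells of intact tissue, and 737 and 3715 in callus. *Atf3*, a stress-induced factor, stood at 267 and 1429, and 183 and 1239. *Junb*, an AP-1 subunit, stood at 684 and 2346, and 341 and 1874. These showed the same direction in both pools. *Ptgs2*, the inducible cyclooxygenase that makes prostaglandins, stood at 64.2 and 735 CPM in intact tissue and 44.0 and 517 in callus. *Nfkbiz* and *Nfkbia*, feedback regulators of NF-κB, stood at 61.0 against 462 and 251 against 834 CPM in intact tissue, and 88.0 against 507 and 121 against 759 in callus. *Irf1*, an interferon regulatory factor, stood at 86.7 against 431 CPM, and 69.7 against 287. *Ccl2*, a monocyte attractant, had 0 UMIs in all 114 members and stood at 370.35 and 185 CPM in the inflammatory cells. *Mt1*, a metal-binding stress protein, stood at 851 against 2506 CPM, and 748 against 2374.

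**Figure D4:**
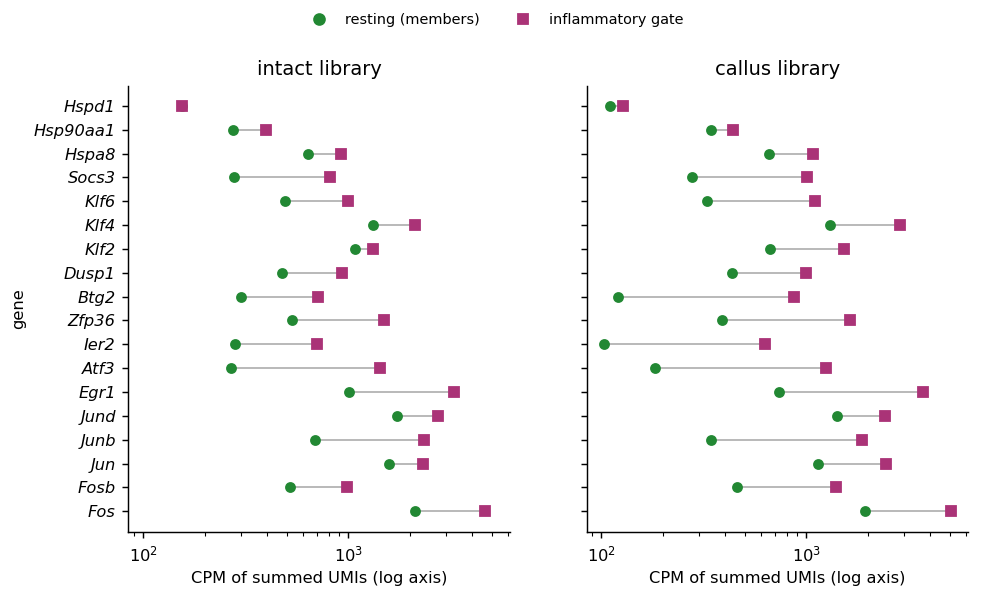
Level of immediate-early genes in resting *Pi16* fibroblasts (circles) and inflammatory *Pi16* fibroblasts (squares), in CPM of summed UMIs on a log axis, in the intact library and the callus library. Inflammatory cells lie to the right for nearly all genes drawn, *Hspd1* being close to equal, with *Egr1* at 1005 against 3270 CPM in intact tissue and 737 against 3715 in callus.

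Genes higher in resting cells were fewer. In callus the highest included haemoglobin genes, whose UMIs lay mostly in 1 mixed cell. *Lars2* was the 1 gene called higher in both libraries, at 1645 against 700 CPM in intact tissue and 833 against 303 in callus. *Fap*, a serine protease of fibroblasts, stood at 209 against 121 CPM, and 231 against 138, under 2-fold in both. *Txnip*, an inhibitor of thioredoxin, stood at 463 against 226 CPM in intact tissue, a call, and at 359 against 218 in callus, under 2-fold.

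Cells within the 6-gene fibroblast limit with at least 2 UMIs of *Col15a1* and none of *Pi16* numbered 13 in intact tissue and 16 in callus. Of the 16, 10 carried at least 50 osteoblast UMIs, and of the 13, 1 did. The median depth of the 16 was 26083 UMIs, and their osteoblast list stood at 91682 CPM. Whether such cells were osteoblasts or mixtures of cells was not tested. In intact tissue 4728 of 4735 osteoblast UMIs lay in 1 of the 13 cells and 9719 of 9810 red cell UMIs in 1, and these lists stood at 42919 and 88921 CPM. The comparison with these cells is therefore between unlike cells in both libraries. Of 1303 genes in intact tissue, 336 (25.8%) were 2-fold higher in resting cells and 84 (6.45%) lower, and of 1703 in callus 514 (30.2%) and 173 (10.2%). The median log2 ratio over all genes was 0.38 and 0.43. Centred on it, 210 and 139 genes were called in intact tissue and 355 and 281 in callus, which moved the share of higher calls from 80.0% to 60.2% and from 74.8% to 55.8%. Without the mixed cells, 243 and 107 genes were called in intact tissue, and 138 and 64 in callus.

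Several genes of the *Pi16* cells were far higher in them than in *Col15a1* cells in both libraries. The *Col15a1* cells included some called mixed only because they held at least 50 UMIs of another cell type's list. These were 2 of 13 in intact tissue and 10 of 16 in callus. Only *Col1a1* is given without them as well. *Efemp1* stood at 1221 and 895 CPM in intact and callus members and at 18.1 and 5.26 in the *Col15a1* cells. *Igfbp5* stood at 6778 and 6331 against 54.4 and 145, and *Sema3c* at 1757 and 1456 against 27.2 and 39.4. *Postn*, described above as higher in callus members, had 0 UMIs in the intact *Col15a1* cells and 18.4 CPM in those of callus. *Dpp4* stood at 508 and 462 against 27.2 and 10.5 CPM, and *Anxa3* and *Cd248* had log2 ratios of at least 4.73 and 5.02 in both. Of 13 progenitor surface genes examined in intact tissue, 12 were 2-fold higher in resting cells, and of 11 in callus, 10. Beside them, 25.8% and 30.2% of all genes were higher. A gene could reach the minimum of 50 UMIs through the resting cells alone, and the *Col15a1* cells were chosen to lack *Pi16*. No count of this list without the mixed *Col15a1* cells is given here. *Col1a1* stood at 3379 and 7751 CPM in resting and 33592 and 115807 in *Col15a1* cells, but at 3659 and 2116 in the 11 and 6 *Col15a1* cells that were not mixed.

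Among themselves the resting cells varied most in a handful of genes. At 2000 UMIs a cell, the variance over the mean had a median of 1.23 and 1.24 over genes in intact and callus members. *Malat1* had 46.6 and 38.2. In intact members *Igfbp5* had 14.0, *Gsn* 12.5, *Fos* 6.34, *Lars2* 5.20, *Smpd3* 4.78, *S100a6* 4.72, *Col3a1* 4.64 and *Krtdap* 4.09, leaving out model genes. In callus members the next were *Col3a1* with 27.3, *Col1a2* with 21.4, *Col1a1* with 19.0, *Igfbp5* with 13.7 and *Sparc* with 12.2.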

How the data were processed

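Cells were sorted for tdTomato and sequenced with a 10x 3′ V3 kit, 1 library per condition. The deposited values are whole-number counts of UMIs per gene and barcode that the authors made with Cell Ranger 6.0.0 (per the file headers) on mm10 for 32285 genes. The annotation release is not given in the sources used here. Members were found from these counts by the stated limits. UMIs were summed over the members of a library and divided by their total (CPM), with exact Poisson intervals, exact conditional intervals for ratios and Clopper-Pearson intervals for shares. A count of 0 entered ratios as 3 counts. B-lineage cells (at least 5 UMIs of *Cd79a* and *Cd79b*, none of *Dcn*, *Col3a1* or *Pdgfra*) gave the background, in which this choice lowers fibroblast RNA. Shares of cells with *C4b*, *Smpd3* and *Pi16* were compared after thinning to 2000 UMIs. Other counts of cells with a UMI were not thinned, so depth enters them.

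Named genes were those of 28 gene group and 17 cell type lists, the 12 highest and 12 lowest ratios among genes with at least 100 UMIs, a UMI in at least 15% of cells of the higher group and at most 20% of UMIs in 1 cell, and the 15 most abundant. Genes of the rule, mitochondrial, ribosomal protein, haemoglobin and model genes were left out of the ranked names, and 1 gene that met the rule is not reported here. Members and lists were chosen with earlier results of these data known. Doublets were not removed, since Scrublet served as an alternative only and took out 1 intact and 2 callus members. Other alternatives changed the limits, depth, filter, scaling and weight of cells. The ratio and thinning steps were tested on simulated data. Python 3.11.15, numpy 2.4.6, scipy 1.17.1 and scanpy 1.11.5 were used.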

Additional observations from a re-analysis of the deposited data

Results flagged for a closer look

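Haemoglobin genes ran in opposite directions between libraries when resting cells were set beside inflammatory *Pi16* cells. The log2 ratio of resting over inflammatory CPM in callus was 3.38 for *Hbb-bt*, 2.40 for *Hbb-bs*, 1.88 for *Hba-a1* and 2.88 for *Hba-a2*, and in intact tissue it was -3.14, -2.65, -3.49 and -3.24. Set as callus over intact, the inflammatory cells had -2.09 for *Hbb-bt*, -1.31 for *Hbb-bs* and -1.59 for *Hba-a2*, and the members 4.44, 3.73 and 4.53. These differences were not tested. Of the 6431 red cell UMIs of callus members, 6386 lay in 1 mixed cell.

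*Pi16*, the gene that defines the members, was also present in cells of the neutrophil gate (at least 50 UMIs of *S100a8* and *S100a9*, no UMI of *Dcn*, *Col3a1* or *Pdgfra*), which enter no comparison of the report. Its level there was 123 CPM in intact tissue, with a UMI in 162 of 293 cells (55.3%, 49.4 to 61.1) and at most 5 in a cell, and 58.8 CPM in callus, with a UMI in 427 of 804 cells (53.1%, 49.6 to 56.6). B-lineage cells stood at 13.8 and 4.75 CPM, with a UMI in 4.92% and 2.68% of cells. At 2000 UMIs a cell the shares were 26.1% and 13.2% in the neutrophil gate and 3.66% and 0.873% in B-lineage cells. Median depths were 5869 and 9296 UMIs in the neutrophil gate and 2908 and 3383 in B-lineage cells. Other genes of the members, *Clec3b*, *Sema3c*, *Efemp1*, *Fbn1*, *Cd248*, *Mfap5* and *Igfbp6*, summed to 21 UMIs in the intact neutrophil gate beside 244 of *Pi16*, and to 37 beside 649 in callus. The gate left out cells with *Dcn*, *Col3a1* or *Pdgfra*, which also lowers these sums.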

How the results depend on the processing

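With 1 library per condition no result has a replicate check, and calls mark size alone. No paired analysis was possible because each condition has 1 library and no test was made. Of the counts and shares recomputed, 99 stayed within the limit of 1.5 times or the interval, and 35 moved. The balance of higher and lower genes, callus over intact, turned from 45 and 44 to 29 and 64 without each gene's highest cell, and to 18 and 31 in cells of 4000 to 12000 UMIs, and the other way to 24 and 11 at a minimum of 100 UMIs and 17 and 9 after thinning to 2000 UMIs. Red cell genes reversed, from 4 of 4 higher (median log2 4.48) to 4 of 4 lower (-2.69) without the highest cell and 2 of 2 lower without the mixed cells. Settings of depth and of the UMI minimum alter how many genes are examined, and other causes were not tested. Of 528 values of the 32 named genes that were called, 446 kept the call and 82 lost it, and of 122 values of the 7 that were not called, 101 stayed uncalled and 21 gained a call. Restricting cells to 4000 to 12000 UMIs left 37 intact and 22 callus members and 49 genes callus over intact, 9 in the gene lists, 91 resting over inflammatory in callus, and 273 and 138 over *Col15a1* cells in intact tissue and callus. Thinning cells to 2000 UMIs gave 26 and 6, then 79 and 50 over inflammatory and 168 and 108 over *Col15a1* cells. A minimum of 20 UMIs gave 430 and 54, then 689 and 527, and 1134 and 1807, and a minimum of 100 gave 35 and 16, then 90 and 87, and 218 and 335. An inflammatory limit of 10 UMIs gave 123 genes over inflammatory cells in intact tissue and 10 CPM added gave 122. Removing cells with 10 UMIs of haematopoietic, red cell or muscle genes gave 277 over *Col15a1* cells in intact tissue, and removing mixed cells, an alternative chosen after seeing the data, 202 in callus. The main counts were 89 callus over intact, 32 in the gene lists, 198 and 158 over inflammatory and 420 and 687 over *Col15a1* cells. With 2 UMIs needed, the share of members with *C4b* was 0% in intact tissue and 18.4% in callus, and with *Smpd3* 47.3% and 28.9%. At 1000 UMIs the share with *Smpd3* was 45.6% in intact members and 40.0% in callus members, and at 4000 UMIs 70.3% and 66.7%, and the depth also sets which cells are kept. *C4b* kept its call in all 16 settings that could be run, with log2 ratios from 3.91 to 5.74. The highest of these came without the highest cell of each library and rests on very few intact UMIs. *Col1a1*, *Col1a2*, *Col3a1* and *Postn* kept theirs in 13 of 18 settings, with log2 ranges of 0.68 to 1.38, 0.55 to 1.25, 0.73 to 1.35 and 0.87 to 1.15, *C3* in 14 and *Smpd3* in 17, while *C1ra* kept its call in 10 of 17 and *Junb* in 8 of 18.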

Other observations

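*Malat1*, a long noncoding RNA kept in the nucleus, divided the members. It stood under 20 UMIs per 10000 in 21 of 69 intact and 8 of 45 callus members, while the medians of all members were 307 and 305. Members under that level had a median of 3015 UMIs against 4914 in the other intact members, and 3501 against 5545 in callus. Their median mitochondrial shares were 1.85% against 1.73% and 2.54% against 2.29%, and their *Pi16* level per 10000 UMIs was 43.4 against 41.9 in intact and 47.5 against 28.8 in callus members. The level of 20 was set after the values were seen. No alternative setting left these cells out, so their part in the ratios above was not tested.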
